A study of Mus musculus with 6 samples.

Results

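The annexin genes were followed in 4T1 cells, a BALB/c mouse line of mammary carcinoma, with and without a knockout of Mki67, which encodes the proliferation marker Ki-67. The members are the 10 listed symbols Anxa1 to Anxa9 and Anxa11, 10 of 54146 genes counted, and were found through Ensembl IDs paired with symbols by GENCODE mouse release 21. All 10 had enough reads to be tested. The family was chosen because Anxa8 was low in knockout clone 1, so every clone 1 against WT value of the members is a description with no test. The 6 libraries form 3 groups of 2: Mki67-/- clone 1, Mki67-/- clone 2, and wild type (WT) cells with no Mki67 deletion. All were grown in the same way in DMEM with 10% foetal bovine serum, and total RNA depleted of ribosomal RNA was sequenced with its strand kept. Each knockout group is 1 clone, so loss of Ki-67 and other differences between the clonal lines cannot be told apart. Whether replicate libraries came from separate cultures is not stated in the labels, so the p-values rest on a spread that may be technical.

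Annexins are proteins that bind negatively charged phospholipids of membranes when calcium rises. They share a conserved core of repeats that carries the calcium sites, and differ in the N-terminal part, which binds partners such as S100 proteins. In epithelial and carcinoma cells they are known for resealing of the damaged plasma membrane, for vesicle traffic, for plasmin formation at the cell surface and, through secreted annexin A1, for the resolution of inflammation.

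The promoter sequences of Anxa8, whose level chose the family, and of Anxa1, Anxa2 and Anxa11 are shown as examples. In clone 2 against WT, Anxa1 fell and Anxa2 and Anxa11 rose. Anxa5 and Anxa7 were also called there, and their windows are not shown. Each is the 250 bases before the RefSeq start, 5′ to 3′, on GRCm38.p6. Capitals mark the AP-1 motif TGANTCA and the TATA box letters TATAAA, searched on both strands.
Anxa8: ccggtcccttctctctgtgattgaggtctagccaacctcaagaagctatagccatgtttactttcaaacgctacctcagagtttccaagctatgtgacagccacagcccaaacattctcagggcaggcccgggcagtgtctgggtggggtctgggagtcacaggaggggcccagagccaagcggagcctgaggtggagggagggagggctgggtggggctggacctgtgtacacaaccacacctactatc
Anxa1: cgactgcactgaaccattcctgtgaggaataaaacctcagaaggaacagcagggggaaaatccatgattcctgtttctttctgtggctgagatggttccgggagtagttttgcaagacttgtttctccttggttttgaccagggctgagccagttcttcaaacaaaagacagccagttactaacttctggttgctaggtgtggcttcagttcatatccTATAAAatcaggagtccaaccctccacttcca
Anxa2: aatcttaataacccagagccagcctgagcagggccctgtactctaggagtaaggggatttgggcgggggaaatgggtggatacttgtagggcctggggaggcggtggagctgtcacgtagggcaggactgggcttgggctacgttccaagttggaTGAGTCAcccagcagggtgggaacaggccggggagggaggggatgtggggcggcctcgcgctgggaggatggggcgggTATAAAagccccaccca
Anxa11: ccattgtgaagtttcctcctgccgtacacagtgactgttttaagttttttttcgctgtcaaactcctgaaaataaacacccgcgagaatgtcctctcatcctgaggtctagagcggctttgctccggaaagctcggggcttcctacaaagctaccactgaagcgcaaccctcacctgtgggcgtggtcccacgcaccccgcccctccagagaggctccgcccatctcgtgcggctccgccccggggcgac
The windows lie at chr14:34085729-34085978 on the plus strand, chr19:20390672-20390921 on the minus strand, chr9:69453433-69453682 on the plus strand and chr14:25841905-25842154 on the plus strand. The Anxa8 window holds neither motif, has 4 CpG and is 58% G or C, while that of Anxa11 also holds neither and has 17 CpG. The Anxa2 window holds both motifs, the AP-1 letters beginning 95 bases and the TATA letters 17 bases before the start, and has 9 CpG. The Anxa1 window holds the TATA letters, beginning 32 bases before the start, and 2 CpG. Of all 32851 RefSeq windows of this length, 6.75% hold the AP-1 letters and 12.4% the TATA letters, and the median number of CpG is 6. Windows, 11 in all, were found for 8 of the 10 members, and not for Anxa3 and Anxa6. Of these 11, only those of Anxa1 and Anxa2 hold the TATA letters and only that of Anxa2 the AP-1 letters. The windows shown were picked by the values of their genes, so no excess of a motif is read from them. These matches describe letters in the window and not binding.

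The reads assigned to genes came to 10428970 to 22658499 per library. CPM is the gene count per 1000000 reads of the library's TMM-scaled size, and a floor of 3 counts stood at 0.130 to 0.296 CPM. Mki67 was read in every library, with 85.8 and 103 CPM in clone 1, 39.9 and 52.7 CPM in clone 2, and 736 and 647 CPM in WT, and fell in clone 2 against WT (log2 change -3.90 with SE 0.157 and adjusted p = 2.77e-11; edgeR quasi-likelihood test). Counts per gene do not show which part of it was altered. All 6 epithelial markers (Epcam, Cdh1, Krt7, Krt8, Krt18 and Krt19) were well read, and their summed level was 5316 and 5358 CPM in clone 1, 5643 and 5261 CPM in clone 2, and 3305 and 3730 CPM in WT. The part of these levels in the results was not tested. In clone 2 against WT, Krt7 (1.17), Krt18 (0.75) and Epcam (0.43) were higher, Cdh1 (-0.35, adjusted p = 0.0167) was lower, and Krt8 and Krt19 did not pass the test, so the 6 markers did not move together. None of the 18 markers of fibroblasts, endothelium, leukocytes, red cells and smooth muscle had enough reads to be tested. Their summed level in a list was at most 0.573 CPM in a clone 1 library, 0.259 CPM in a clone 2 library and 0.296 CPM in a WT library, and 8 of them, among them Lum, Cdh5, Kdr, Cd3e and Adgre1, had no read in any library.

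Anxa8 (ENSMUSG00000021950; GRCm38 chromosome 14, 34085981 to 34100571, plus strand) encodes an epithelial annexin of late endosomes, first known as a vascular anticoagulant protein. It was low in clone 1 and near the WT level in clone 2. The counts were 88 and 90 reads in the clone 1 libraries, 675 and 849 in those of clone 2, and 389 and 573 in those of WT. These gave 3.88 and 4.05 CPM in clone 1, 39.7 and 36.6 CPM in clone 2, and 38.4 and 33.8 CPM in WT. Both clone 1 libraries lay far below all others, while the ranges of clone 2 and WT overlapped. The clone 1 reads stood well above the floor of 3 counts, so the transcript was reduced and not absent. Pooled over libraries, clone 1 had 0.111 of the WT level, with an exact 95% interval of 0.0945 to 0.131, which covers counting error only. The fitted difference of clone 1 against WT (log2 fold change -3.18, SE 0.152) and of clone 1 against clone 2 (log2 fold change -3.27, SE 0.150) are given without a test, since this level chose the gene. Clone 2 averaged 38.2 ± 2.19 CPM and WT 36.1 ± 3.20 CPM (SD, n = 2), a difference that did not pass edgeR's quasi-likelihood test (log2 change 0.08 with SE 0.127 and adjusted p = 0.598). Its 95% interval of -0.18 to 0.35 on the log2 scale leaves room for a modest difference in either direction. In RNA from a whole culture, fewer cells with the transcript and less of it per cell cannot be told apart.

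The genes next to Anxa8 were silent, and those farther off did not show its clone 1 value. The 3 nearest protein-coding genes on each side (Gm5460, A630023A22Rik, Antxrl, Npy4r, Gprin2 and Syt15) had 0 to 2 reads in every library, so a shared change next to the gene was not detectable at this depth. A630023A22Rik overlaps Anxa8 on the opposite strand, and the antisense count of Anxa8 was 0 and 1 reads in clone 1, 1 and 4 in clone 2, and 0 and 0 in WT. The nearest genes with enough reads, looked up after the Anxa8 values were known, lie 136 to 1505 kb away. Shld2, Glud1 and Bmpr1a had log2 fold changes of 0.38, 0.39 and -0.12 in clone 1 against WT, and Mapk8, Arhgap22 and Ercc6 on the other side had 0.12, 0.26 and -0.09. Over the 452 tested genes of chromosome 14 the median of clone 1 against WT was -0.24, beside -0.01 over all tested genes.

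**Figure D1:**
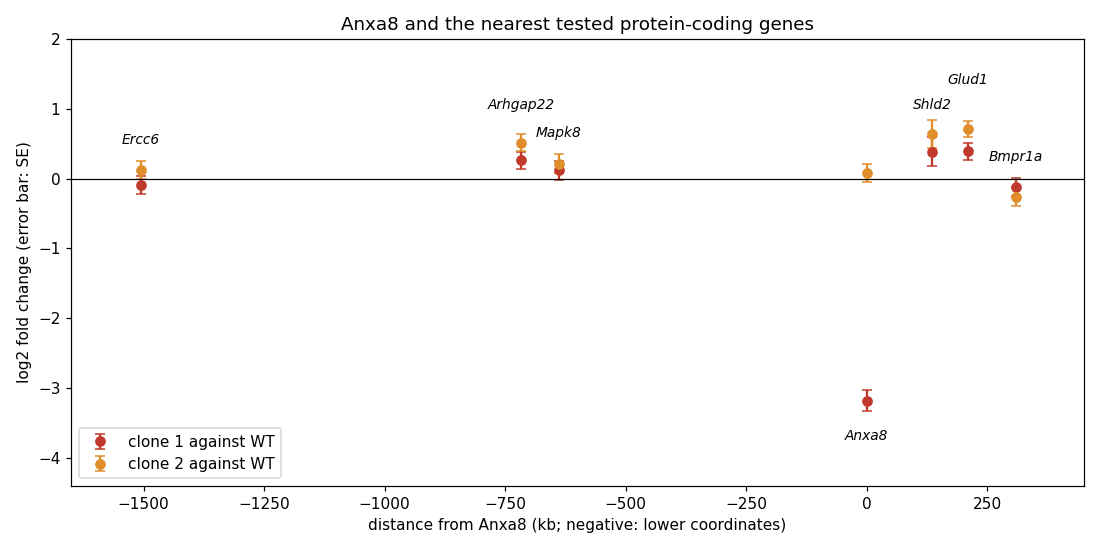
Log2 fold changes of clone 1 and clone 2 against WT (y axis, error bars SE) for Anxa8 and the nearest 3 tested protein-coding genes on each side, by distance from Anxa8 in kb (x axis). Anxa8 in clone 1 stands at -3.18, and the other 6 genes lie between -0.26 and 0.71 in both clones.

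Among the 5 genes whose log2 CPM over the 6 libraries lay nearest to that of Anxa8, by Euclidean distance after centring, were Bcl3 (distance 0.481), Ppargc1b (1.02), Cd40 (1.21) and Slfn2 (1.22). They were picked for this pattern and get no test. Bcl3, an atypical nuclear IkB protein, had 0.176 and 0.270 CPM in clone 1, 3.24 and 2.55 CPM in clone 2, and 3.25 and 3.48 CPM in WT. Cd40, a receptor of the TNF family, had 0.309 and 0.584 CPM in clone 1, 3.89 and 3.84 CPM in clone 2, and 2.27 and 2.01 CPM in WT. Ppargc1b, a transcriptional coactivator of mitochondrial genes, stayed at 0.441 and 0.450 CPM in clone 1, against 2.504 to 3.01 CPM in the other libraries. Slfn2, a Schlafen gene, had 1.32 and 1.124 CPM in clone 1, against 5.74 to 8.80 CPM elsewhere. These are low levels, and Bcl3 rested on 4 and 6 reads in the clone 1 libraries.

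**Figure D2:**
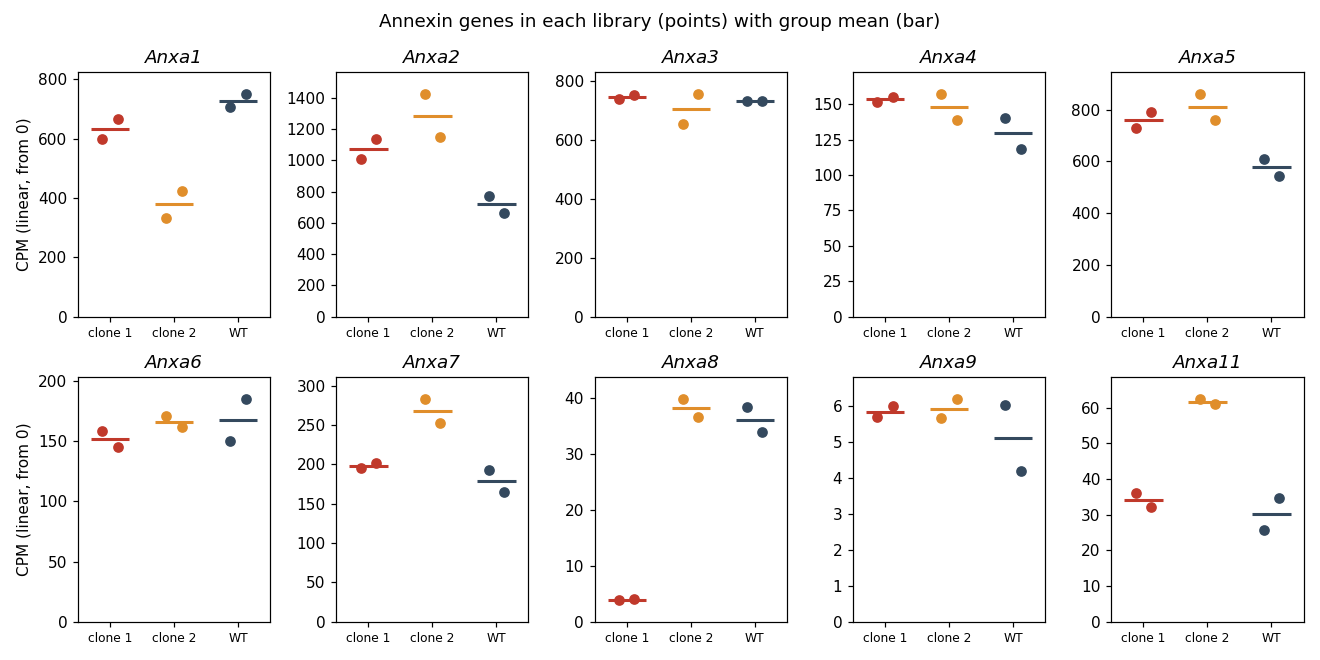
CPM of each annexin gene (y axis, linear and from 0) in every library of clone 1, clone 2 and WT, with points for libraries and bars for group means of n = 2. Anxa8 is at 3.88 and 4.05 CPM in clone 1, Anxa1 is lowest in clone 2, and Anxa11 and Anxa7 are highest in clone 2.

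Clone 2 was compared with WT to ask which annexins differed in a knockout clone that was not used to choose the family, although the WT libraries are shared with the comparison that was. Anxa11, Anxa2, Anxa7 and Anxa5 rose and Anxa1 fell, while Anxa3, Anxa4, Anxa6, Anxa8 and Anxa9 did not pass the test. This makes 5 of 10 members called at an adjusted p under 0.05, beside 53.4% of all 13755 genes tested, so the number of annexins called is close to that of genes at large. By direction, 4 members were higher beside 25.3% of all genes, and 1 was lower beside 28.2%. The median log2 fold change of the 10 members was 0.22, and that of all tested genes was -0.02.

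Anxa1 (ENSMUSG00000024659; GRCm38 chromosome 19, 20373428 to 20390944, minus strand) encodes the annexin that restrains cytosolic phospholipase A2 and, once secreted, binds formyl peptide receptors. It had 599 and 666 CPM in clone 1, 331 and 425 CPM in clone 2, and 707 and 750.1 CPM in WT. All libraries of clone 2 lay below those of clone 1, and those of clone 1 below those of WT. Its level fell to 378 ± 66.0 CPM in clone 2, against 729 ± 30.5 CPM in WT (SD, n = 2; log2 change -0.95 with SE 0.131 and adjusted p = 1.72e-05; edgeR quasi-likelihood test). Its target Pla2g4a, the cytosolic phospholipase A2, fell as well, with 56.1 and 73.5 CPM in clone 2, against 140.1 and 121 CPM in WT (log2 change -1.01 with SE 0.144 and adjusted p = 2.33e-05). Its receptor genes Fpr1 and Fpr2 had no read in any library, which allows at most 0.130 to 0.296 CPM. Anxa3 (ENSMUSG00000029484; GRCm38 chromosome 5, 96793339 to 96845966, plus strand), an annexin known to inhibit phospholipase A2 in vitro, had 739 and 752 CPM in clone 1, 652 and 755 CPM in clone 2, and 731 and 731 CPM in WT. Its difference of clone 2 from WT did not pass the test (log2 change -0.06 with SE 0.116 and adjusted p = 0.712), with a 95% interval of -0.30 to 0.19.

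Anxa2 (ENSMUSG00000032231; GRCm38 chromosome 9, 69453620 to 69491795, plus strand) encodes the annexin that forms a complex with S100a10 at the plasma membrane and helps to form plasmin there. It had 1009.6 and 1137 CPM in clone 1, 1424 and 1149 CPM in clone 2, and 774 and 665 CPM in WT. All libraries of both clones lay above those of WT. In clone 2 the mean was 1287 ± 194 CPM, against 719 ± 77.4 CPM in WT (log2 change 0.84 with SE 0.133 and adjusted p = 6.68e-05). S100a10, its partner, rose too, with 458 and 447 CPM in clone 2, against 321 and 289 CPM in WT (log2 change 0.57 with SE 0.117 and adjusted p = 0.000724). Plat, the tissue plasminogen activator that the complex binds, moved the other way, with 4.06 and 3.32 CPM in clone 2, against 9.47 and 9.92 CPM in WT (log2 change -1.40 with SE 0.212 and adjusted p = 3.98e-05), and plasminogen itself, Plg, had no read. RefSeq lists a pseudogene of Anxa2, Gm41080. Reads that map to several places were not assigned to genes, so the level of Anxa2 is uncertain to that extent. How many such reads were lost was not measured for Anxa2 or any other member.

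Anxa5 (ENSMUSG00000027712; GRCm38 chromosome 3, 36448923 to 36475894, minus strand) encodes the annexin that coats exposed phosphatidylserine and is used as a probe of dying cells. It had 728 and 791 CPM in clone 1, 859.6 and 760.1 CPM in clone 2, and 607 and 545 CPM in WT, with all libraries of both clones above those of WT. Clone 2 averaged 809.8 ± 70.3 CPM and WT 576 ± 44.2 CPM (log2 change 0.49 with SE 0.120 and adjusted p = 0.00255). Anxa6 (ENSMUSG00000018340; GRCm38 chromosome 11, 54979108 to 55033445, minus strand), the member with a duplicated core, which brings the Ras inhibitor Rasa1 to membranes, had 159 and 145 CPM in clone 1, 171 and 162 CPM in clone 2, and 149.8 and 185 CPM in WT. The WT libraries overlapped those of both clones, clone 1 lay below clone 2, and clone 2 did not differ from WT by the test (log2 change -0.01 with SE 0.123 and adjusted p = 0.948, 95% interval -0.27 to 0.25). Anxa4 (ENSMUSG00000029994; GRCm38 chromosome 6, 86736840 to 86793584, minus strand), an annexin of epithelial membranes, had 151 and 155 CPM in clone 1, 157 and 139 CPM in clone 2, and 141 and 119 CPM in WT. The clone 2 range overlapped that of WT (log2 change 0.19 with SE 0.121 and adjusted p = 0.189), but without WT replicate 1 the difference was called (0.33, adjusted p = 0.0321). Chromosome 6, where Anxa4 lies, had a median log2 fold change of 0.22 over 685 tested genes.

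Anxa7 and Anxa11 have long N-terminal tails and both bind penta-EF-hand calcium proteins. Anxa7 (ENSMUSG00000021814; GRCm38 chromosome 14, 20455260 to 20480133, minus strand), once named synexin for its role in fusing secretory granules, had 195 and 201 CPM in clone 1, 283 and 253 CPM in clone 2, and 193 and 164 CPM in WT. Clone 2 lay above both clone 1 and WT. The means were 268 ± 21.1 CPM in clone 2 and 179 ± 20.1 CPM in WT (log2 change 0.59 with SE 0.119 and adjusted p = 0.000636). Anxa11 (ENSMUSG00000021866; GRCm38 chromosome 14, 25842156 to 25886804, plus strand), which tethers RNA granules to lysosomes and acts in cytokinesis, had 36.2 and 32.1 CPM in clone 1, 62.3 and 60.9 CPM in clone 2, and 25.7 and 34.6 CPM in WT. Clone 2 again lay above all other libraries, with 61.6 ± 0.985 CPM against 30.2 ± 6.27 CPM in WT (log2 change 1.02 with SE 0.143 and adjusted p = 1.92e-05), and the clone 1 and WT ranges overlapped. The partners Pdcd6 and Sri did not pass the test in clone 2, with 74.4 and 85.4 CPM in clone 2, against 72.8 and 77.3 CPM in WT for Pdcd6 and 89.1 and 77.8 CPM in clone 2, against 79.8 and 70.3 CPM in WT for Sri (log2 fold changes 0.09 and 0.15, adjusted p = 0.543 and 0.305). Anxa9 (ENSMUSG00000015702; GRCm38 chromosome 3, 95296096 to 95307176, minus strand), whose core lacks the usual calcium sites, was a sparsely read member, with 5.69 and 5.98 CPM in clone 1, 5.65 and 6.17 CPM in clone 2, and 6.02 and 4.19 CPM in WT. It rested on 61 to 143 reads a library, and its interval for clone 2 against WT, -0.20 to 0.70, was the widest of the family (log2 change 0.25 with SE 0.212 and adjusted p = 0.334).

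In clone 1 against WT, described without a test, Anxa8 was the 1 member of 10 that changed by more than 2-fold, beside 20.6% of all tested genes in either direction and 11.8% that were lower. The members were chosen on this contrast, so nothing is read from that share. Anxa2 (0.58, SE 0.133) and Anxa5 (0.40, SE 0.120) had the highest log2 fold changes. The clone 1 libraries of Anxa2, Anxa3, Anxa4, Anxa5 and Anxa7 all lay above those of WT, and those of Anxa1 and Anxa8 below. For Anxa3 the log2 fold change was only 0.03. The share of all genes whose libraries separate in this way was not counted, so nothing is read from the separation. Anxa4 (0.25), Anxa9 (0.23), Anxa11 (0.17), Anxa7 (0.15) and Anxa3 (0.03) lay above 0 by less, and Anxa6 (-0.14) and Anxa1 (-0.20) below it. The value of Anxa11 was -0.01 without WT replicate 1 and 0.41 without WT replicate 2. In clone 2 against WT, which shares the WT libraries, the member past 2-fold was Anxa11, at 1.02, beside 22.4% of all genes. It stood under 2-fold, though still called, at 0.84 without WT replicate 1, 0.93 with upper-quartile scaling, 0.996 with a filter of 1 CPM and 0.92 with chromosome medians subtracted. Thus Anxa8 had -3.18 in clone 1 and 0.08 in clone 2, Anxa1 -0.20 and -0.95, and Anxa2 0.58 and 0.84.

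**Figure D3:**
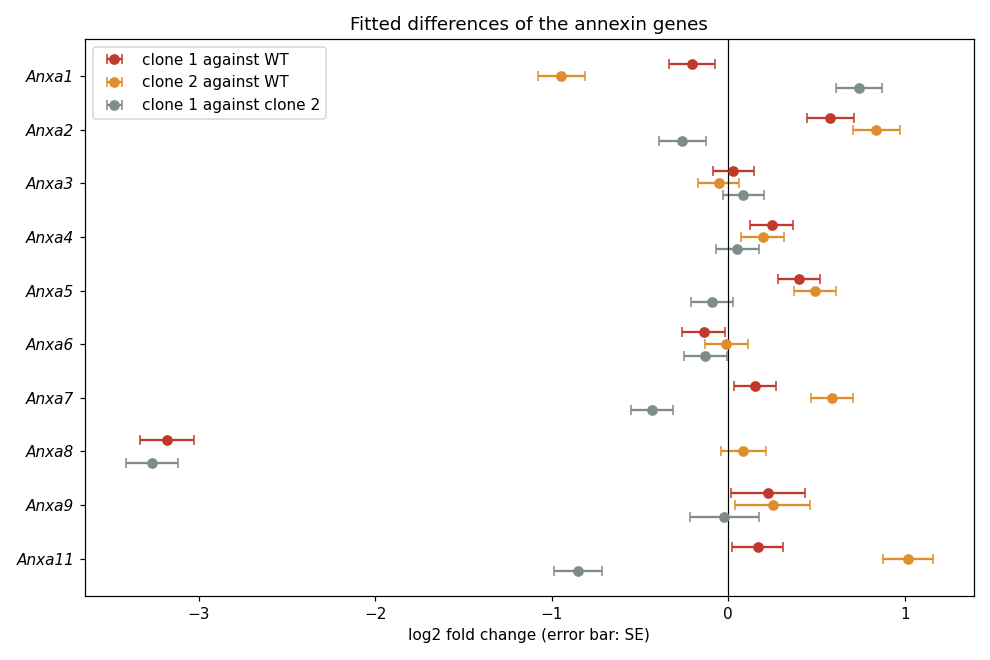
Fitted log2 fold changes (x axis, error bars SE) of the 10 annexin genes for clone 1 against WT, clone 2 against WT and clone 1 against clone 2. Anxa8 stands near -3 wherever clone 1 is compared and near 0 in clone 2 against WT, while Anxa1, Anxa7 and Anxa11 are set apart in clone 2.

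The 2 clones were then compared with each other, which tests whether their differences from WT are unequal. Of the 9 members other than Anxa8, Anxa1 was higher in clone 1, Anxa11 and Anxa7 were lower in clone 1, and 6 did not pass the test, beside 23.5% of all tested genes called, 11.4% higher and 12.1% lower. None of the 9 passed 2-fold, beside 7.90% of all genes, 4.82% higher and 3.08% lower. Anxa1 had 599 and 666 CPM in clone 1, against 331 and 425 CPM in clone 2 (log2 change 0.74 with SE 0.131 and adjusted p = 0.00103). Anxa11 had 36.2 and 32.1 CPM in clone 1, against 62.3 and 60.9 CPM in clone 2 (log2 change -0.85 with SE 0.139 and adjusted p = 0.000562), and Anxa7 had 195 and 201 CPM in clone 1, against 283 and 253 CPM in clone 2 (log2 change -0.43 with SE 0.119 and adjusted p = 0.0159). The groups did not overlap for any of these 3 genes, nor for Anxa6, which was not called (adjusted p = 0.472). Anxa2, at 1009.6 and 1137 CPM in clone 1, against 1424 and 1149 CPM in clone 2, did not overlap either, but its difference missed the threshold (log2 change -0.26 with SE 0.132 and adjusted p = 0.162; 95% interval -0.54 to 0.02). Nothing is read from these separations, since the share of all genes whose libraries separate between the clones was not counted. For Anxa3, Anxa4, Anxa5, Anxa6 and Anxa9 the intervals together spanned -0.44 to 0.39.

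Anxa7, Anxa8 and Anxa11 share chromosome 14, whose 452 tested genes had a median of -0.33 in clone 1 against clone 2, against 0.00 over all genes. When each chromosome's median was subtracted, an alternative chosen after the data were seen, Anxa11 stayed called (-0.51, adjusted p = 0.019), Anxa7 lost its call (-0.10, adjusted p = 0.597), and Anxa8 stood at -2.93. Without clone 1 replicate 1 Anxa7 stood at -0.40 (adjusted p = 0.14), without clone 1 replicate 2 at -0.46 (adjusted p = 0.0996) and without clone 2 replicate 1 at -0.36 (adjusted p = 0.144). Its difference was thus of similar size with fewer libraries but was not called, and the number of all genes called also fell in these fits, to 766 to 1694 of the 3232 called with all libraries. When a change of more than 1.5-fold was required, none of the 3 was called (Anxa1 adjusted p = 0.534, Anxa11 adjusted p = 0.206, Anxa7 adjusted p = 1), by edgeR's glmTreat.

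Levels of different annexins were compared per length, here as CPM per kb of all annotated exons of a gene merged. These lengths were 1777 bases for Anxa5, 2911 for Anxa1, 3643 for Anxa3 and 3731 for Anxa2. Which of the exons were expressed was not examined, so the order of members depends on this length. By this measure Anxa5 was the highest in every group, with 427 ± 25.1 in clone 1, 456 ± 39.6 in clone 2 and 324 ± 24.9 in WT (SD, n = 2). In clone 1 it was followed by Anxa2 (288 ± 24.1), Anxa1 (217 ± 16.5) and Anxa3 (205 ± 2.41), the last 2 with overlapping libraries. In clone 2 the order was Anxa2 (345 ± 52.0), Anxa3 (193 ± 19.8) and Anxa1 (129.8 ± 22.7). In WT it was Anxa1 (250.3 ± 10.5), Anxa3 (201 ± 0.0641) and Anxa2 (193 ± 20.8), where Anxa3 and Anxa2 overlapped. Per kb, Anxa2 thus stood above Anxa1 in both clones and below it in WT. In CPM, Anxa2 was also above Anxa1 in both clones. Their WT libraries overlapped in CPM, at 774 and 665 for Anxa2 and 707 and 750 for Anxa1. Mean CPM put Anxa2 above Anxa5 in every group, at 1073 and 759 in clone 1, 1287 and 810 in clone 2, and 719 and 576 in WT. Anxa1 and Anxa3, at 729 and 731 CPM, lay above Anxa5 in WT as well.

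A middle set followed in each group, Anxa6, Anxa7 and Anxa4, at 51.8, 33.1 and 33.0 CPM per kb in clone 1, 56.7, 44.7 and 31.9 in clone 2, and 57.1, 29.8 and 27.9 in WT. Anxa7 and Anxa4 overlapped in clone 1 and in WT and not in clone 2. Anxa8 took the last place in clone 1, with 2.11 ± 0.0630 CPM per kb, just under Anxa9 (2.81 ± 0.100). In clone 2 and WT it took the eighth place, with 20.3 ± 1.17 and 19.2 ± 1.70, ahead of Anxa11 (14.9 ± 0.238 in clone 2 and 7.30 ± 1.52 in WT) and Anxa9 (2.85 ± 0.177 and 2.46 ± 0.622). In CPM, Anxa11 lay above Anxa8 in clone 2, with means of 61.6 and 38.2. The mouse annexins outside the listed members were close to silent. Anxa10 had no read, and Anxa13 had 3 and 2 reads in clone 1, 1 and 3 in clone 2, and none in WT.

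**Figure D4:**
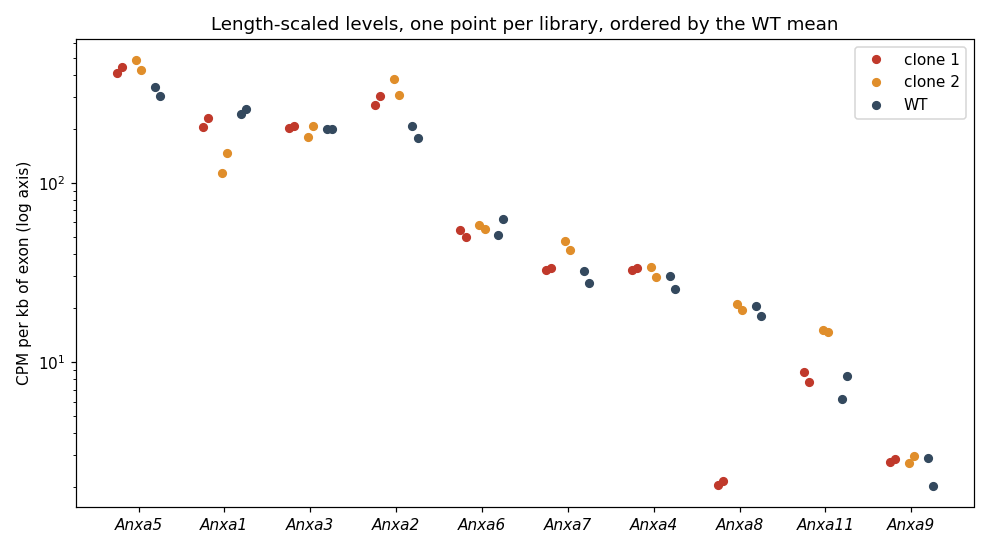
CPM per kb of exon (y axis, log scale) of each annexin gene in every library of clone 1, clone 2 and WT, ordered by the WT mean. The members span from about 2 to over 400, and Anxa8 in clone 1 lies just under Anxa9.

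Together the 10 members took a small and slightly larger share of the gene reads in the clones, 0.364% and 0.382% in clone 1 and 0.396% and 0.390% in clone 2, against 0.328% and 0.325% in WT. Anxa2 made up 27.8% and 29.2% of the annexin reads in clone 1 and 35.7% and 30.7% in clone 2, against 23.0% and 20.6% in WT. Anxa1 made up 16.5% and 17.1% in clone 1 and 8.31% and 11.3% in clone 2, against 20.96% and 23.22% in WT. Without Anxa2, the summed CPM of the other 9 members was 2617 and 2753 CPM in clone 1, 2562 and 2596 CPM in clone 2 and 2599 and 2566 CPM in WT, so the clone 2 and WT libraries overlapped in this sum and clone 1 lay slightly above. Anxa8 gave 0.107% and 0.104% of the annexin reads in clone 1, 0.997% and 0.978% in clone 2 and 1.14% and 1.05% in WT. These sums were not tested.

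The partner genes of the annexins, 33 listed from general knowledge with earlier results of these data known, had 28 tested members. In clone 2 against WT 11 rose, 10 fell and 7 did not pass the test, beside 53.4% of all genes called, and the median log2 fold change was 0.13. Among 11 tested genes of membrane repair 5 rose and 4 fell, beside 25.3% and 28.2% of all tested genes. Myof, a ferlin that binds membranes in calcium like its relative dysferlin, had 998 and 963 CPM in clone 1, 688 and 776 CPM in clone 2, and 416 and 463 CPM in WT (log2 change 0.74 with SE 0.118 and adjusted p = 7.53e-05), with both clones above WT. Pdcd6ip, the ESCRT adaptor ALIX, had 282 and 275 CPM in clone 2, against 206 and 196 CPM in WT (adjusted p = 0.00173), and the ESCRT ATPase gene Vps4a had 122 and 108 CPM in clone 2, against 69.4 and 67.2 CPM in WT (adjusted p = 4.86e-05). Its paralogue Vps4b moved the other way, with 58.4 and 73.5 CPM in clone 2, against 115 and 94.5 CPM in WT (adjusted p = 0.000788). Cav1, the coat protein of caveolae, had 53.7 and 51.4 CPM in clone 1, 25.7 and 24.8 CPM in clone 2, and 57.1 and 46.9 CPM in WT, and fell in clone 2 (log2 change -1.04 with SE 0.131 and adjusted p = 6.36e-06). Cavin1, which shapes caveolae, fell as well, with 264 and 259.6 CPM in clone 2, against 369.8 and 419.7 CPM in WT (adjusted p = 0.000377). Dysf had at most 0.295 CPM and Trim72 1 read in all, so both were too low to be tested.

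Genes that expose or hide phosphatidylserine, the lipid that Anxa5 binds, also moved in both directions, 3 higher and 2 lower of 6, beside 25.3% higher and 28.2% lower over all tested genes. Ano6, a calcium-activated scramblase, had 182 and 177 CPM in clone 1, 189 and 181 CPM in clone 2, and 124 and 119 CPM in WT (log2 change 0.60 with SE 0.110 and adjusted p = 0.000247). Atp11a, a flippase, had 408 and 433 CPM in clone 2, against 236 and 259.8 CPM in WT (log2 change 0.76 with SE 0.113 and adjusted p = 3.33e-05), and Tmem30a, the subunit that flippases need, had 47.8 and 56.8 CPM in clone 2, against 114 and 99.6 CPM in WT (log2 change -1.02 with SE 0.128 and adjusted p = 5.99e-06). Plscr1, an interferon-inducible phospholipid-binding protein, had 28.5 and 32.5 CPM in clone 1, 56.8 and 64.1 CPM in clone 2, and 30.5 and 35.0 CPM in WT, and rose in clone 2 (log2 change 0.88 with SE 0.131 and adjusted p = 3.62e-05). Of the S100 partners, S100a6 had 2185 and 1890.0 CPM in clone 2, against 1562 and 1547 CPM in WT (adjusted p = 0.0126), S100a4 had 70.5 and 66.1 CPM in clone 2, against 82.0 and 92.8 CPM in WT (adjusted p = 0.0318), and S100a11 varied within groups, at 148 and 87.3 CPM in clone 2, against 137 and 63.6 CPM in WT (adjusted p = 0.753). Cd63, the endosomal tetraspanin whose delivery to the surface depends on annexin A8 in endothelial cells, had 103 and 105 CPM in clone 1, 126 and 123 CPM in clone 2, and 142 and 191 CPM in WT, and was lower in clone 2 (log2 change -0.42 with SE 0.133 and adjusted p = 0.013).

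Several of these partner calls were lost when a library was left out, some with a smaller difference and some with one of similar size. With all libraries the log2 fold changes were -0.36 for S100a4, 0.39 for S100a6, -0.42 for Cd63, 0.41 for Prkca, 0.47 for Capns1, -0.39 for Ahnak, -0.98 for Xkr8 and 0.35 for Chmp4b. Without WT replicate 2 the calls of S100a4 (-0.26, adjusted p = 0.142), Cd63 (-0.19, adjusted p = 0.196), Prkca (0.34, adjusted p = 0.0631), Capns1 (0.33, adjusted p = 0.0667), Ahnak (-0.31, adjusted p = 0.15) and Xkr8 (-0.72, adjusted p = 0.079) were lost, and Capn1 (0.32, adjusted p = 0.0444) was called. Without clone 2 replicate 1 those of S100a6 (0.29, adjusted p = 0.107), S100a4 (-0.40, adjusted p = 0.096), Cd63 (-0.43, adjusted p = 0.0816), Capns1 (0.27, adjusted p = 0.165) and Ahnak (-0.17, adjusted p = 0.362) were lost, and Rasa1 (0.43, adjusted p = 0.0378) was called. Without clone 2 replicate 2 those of S100a4 (-0.32, adjusted p = 0.153), Cd63 (-0.42, adjusted p = 0.0791), Prkca (0.25, adjusted p = 0.167) and Chmp4b (0.24, adjusted p = 0.17) were lost, as was that of Chmp4b (0.25, adjusted p = 0.0981) without WT replicate 1. Thus Cd63 kept its size without either clone 2 library and was smaller without WT replicate 2. With chromosome medians subtracted, S100a4, Cd63, Chmp4b and Ahnak were not called and Sri was, at 0.30 (adjusted p = 0.0453). Calls also changed in other alternatives of the edgeR quasi-likelihood test. With no filter on low counts, S100a4 (adjusted p = 0.0875) and Ahnak (adjusted p = 0.0582) were lost and Rasa1 (adjusted p = 0.0388) was called. S100a4 was lost with only clone 2 and WT fitted (adjusted p = 0.0519), and Chmp4b with upper-quartile scaling (adjusted p = 0.0717).

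Between the clones, 6 of the 28 partners differed, beside 23.5% of all genes. Cav1 (log2 change 1.06 with SE 0.129 and adjusted p = 4.3e-05), Ahnak, a giant scaffold protein that binds the complex of Anxa2 and S100a10 (log2 change 0.66 with SE 0.144 and adjusted p = 0.00424), Rasa1 (log2 change 0.55 with SE 0.131 and adjusted p = 0.00712), Vps4b (log2 change 0.43 with SE 0.138 and adjusted p = 0.0344) and Myof (log2 change 0.42 with SE 0.118 and adjusted p = 0.0176) were higher in clone 1. Plscr1 was lower in clone 1 (log2 change -0.99 with SE 0.129 and adjusted p = 8.3e-05). Ahnak, at 8184 and 7344 CPM in clone 1, against 4148 and 5669 CPM in clone 2, lay on either side of WT, whose libraries had 6114 and 6734 CPM. Cav1 and Plscr1 were called whichever library was left out. Without clone 2 replicate 1, Ahnak (0.45, adjusted p = 0.102), Rasa1 (0.39, adjusted p = 0.137), Vps4b (0.27, adjusted p = 0.332) and Myof (0.33, adjusted p = 0.165) were not called. Without clone 1 replicate 2, Rasa1 (0.46, adjusted p = 0.0922), Vps4b (0.35, adjusted p = 0.242) and Myof (0.45, adjusted p = 0.101) were not, nor was Myof (0.40, adjusted p = 0.135) without clone 1 replicate 1. The differences of Myof were of similar size without either clone 1 library, and fewer genes were called overall in these fits. Without WT replicate 1, Cd63 (adjusted p = 0.0399), Chmp4b (adjusted p = 0.0473), Vps4a (adjusted p = 0.0216) and Capns1 (adjusted p = 0.0389) were called too, and the same 4 genes without WT replicate 2 (adjusted p = 0.0216 to 0.0471).

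**Figure D5:**
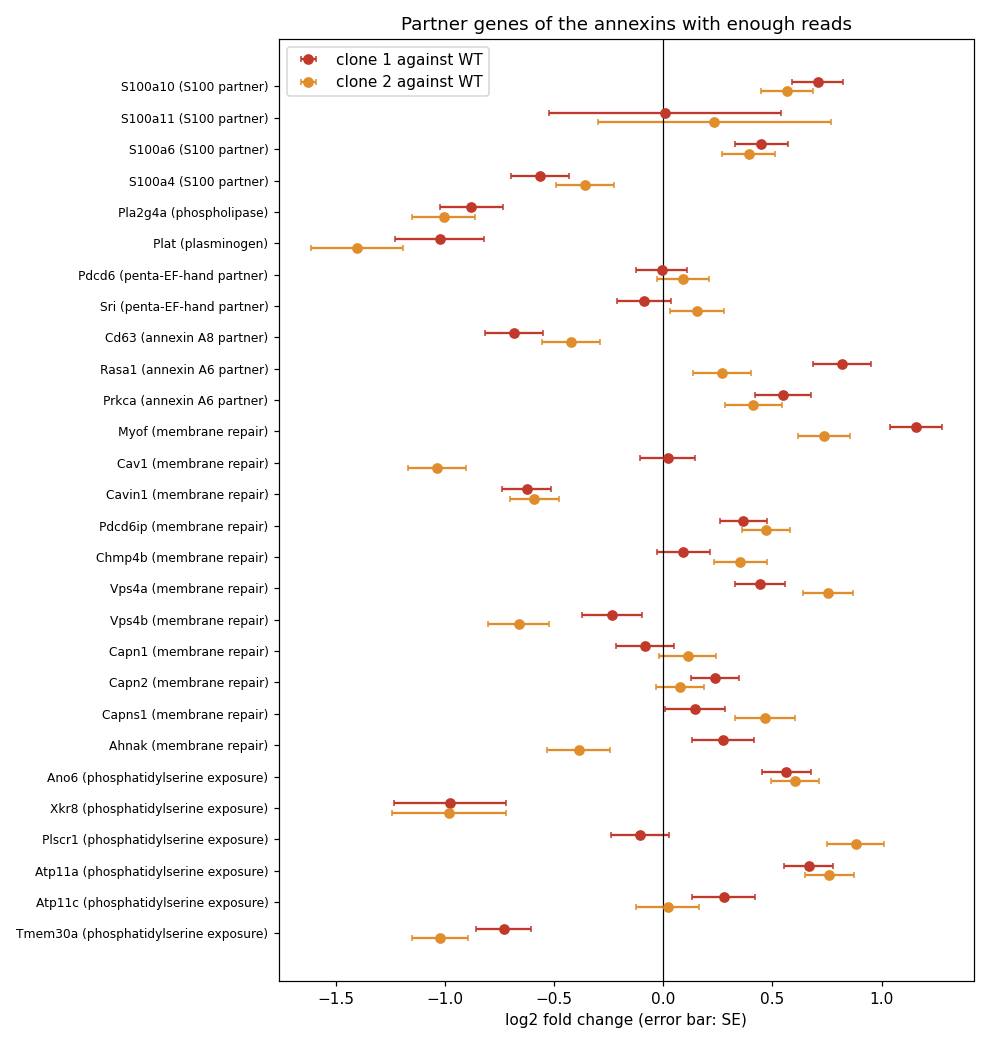
Log2 fold changes of clone 1 and clone 2 against WT (x axis, error bars SE) for the 28 tested partner genes, grouped by role. Plscr1 and Cav1 are near 0 in clone 1, at -0.11 and 0.02, and at 0.88 and -1.04 in clone 2, and S100a11 has the widest error bars.

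Some members overlap other genes, which could share reads with them. Gm42603 lies within Anxa3 on the same strand with 6.95 to 9.80 CPM, and 6330562C20Rik meets Anxa9 on the same strand with 1.97 to 3.01 CPM, so Anxa9, at 4.19 to 6.17 CPM, is the member such reads could affect most. The lincRNA 1500015L24Rik spans Anxa1 on the opposite strand and had 1 read in each clone 1 library, 1 and 0 in clone 2, and 9 and 17 in WT. Mindy1 meets the end of Anxa9 on the opposite strand, with 29.3 and 26.3 CPM in clone 1, 39.6 and 39.4 CPM in clone 2, and 47.8 and 50.7 CPM in WT. Reads on the antisense strand of the members came to at most 39 in a library, for Anxa2. Beside its own reads Anxa9 had the most, with 11 to 18 antisense reads a library, against 61 to 143 on its own strand. With unstranded counts the same 5 members were called in clone 2 against WT and the same 3 between the clones.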

How the data were processed

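Total RNA of 6 4T1 libraries was analysed. Trizol RNA without ribosomal RNA gave stranded libraries, per the labels' protocols. The submitters' processing notes name FastQC, STAR 2.6.0c and the build GRCm38. The deposited values are raw read counts per gene, not normalized by the authors. Column 4, the reverse-strand count, was used because it held 92.3% to 95.7% of stranded gene reads. Summary rows without a gene ID were dropped: reads outside genes or ambiguous were 11.8% to 15.7% of a library, and unmapped or multimapped reads 34.7% to 41.1%. GENCODE release 21 matched 54079 IDs and left 67.

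In R 4.3.3, edgeR 4.0.16 kept 13755 genes with filterByExpr, scaled libraries by TMM and fitted a robust quasi-likelihood model with 1 term per group, leaving 3 residual degrees of freedom. P-values were Benjamini-Hochberg adjusted over all tested genes and called under 0.05. Libraries of a group were not duplicates. Chi-square over degrees of freedom was 17.7 in clone 1, 25.0 in clone 2 and 78.8 in WT, so the WT pair differed most. The WT libraries also enter the spread used between the clones. With only the 2 clones fitted, 4524 genes were called between them, against 3232 with all libraries. The part of the WT spread in this was not tested. Alternatives used DESeq2 1.42.0, limma 3.58.1, other scalings and filters, unstranded counts, blocking on the replicate number, and leaving out each library. The members, lists and named genes (members, partners, genes nearest to Anxa8 in pattern and place) were chosen with earlier results of these data known. The nearest tested genes to Anxa8, and the genes that overlap members, were looked up after values were seen. Of the 5 genes nearest to Anxa8 in pattern, 1 is not reported here. Intervals and floors cover counting error only where they rest on counts.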

Additional observations from a re-analysis of the deposited data

Results flagged for a closer look

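The 2 clones differed from each other in 3 of 9 members, beside 23.5% of all genes tested (edgeR quasi-likelihood test). Each is 1 clone, so a difference in the effect of losing Ki-67 and other differences between the clones cannot be told apart. Anxa1 was higher in clone 1 by 0.74 on the log2 scale (adjusted p = 0.00103). Anxa11 stood at -0.85 (adjusted p = 0.000562) and Anxa7 at -0.43 (adjusted p = 0.0159), both lower in clone 1. In each case both libraries of clone 1 lay on 1 side of both libraries of clone 2. The same held for Anxa2 and Anxa6, which were not called (adjusted p = 0.162 and 0.472). The share of all genes that separate in this way was not counted. With each chromosome's median subtracted, Anxa7 lost its call (-0.10, adjusted p = 0.597). Anxa11 (-0.51, adjusted p = 0.019) and Anxa1 (0.61, adjusted p = 0.00619) kept theirs. Chromosome 14, where Anxa7 and Anxa11 lie, had a median of -0.33 in clone 1 against clone 2.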

How the results depend on the processing

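The 5 members called in clone 2 against WT were called in every alternative run except the required change of 1.5-fold, where Anxa5 and Anxa7 lost their call and 3 members, 5 partners and 3035 genes were called. Leaving out 1 library gave 5 to 6 members, 16 to 21 partners and 5693 to 7133 genes, against 7349 genes with all libraries. Between the clones, 3232 genes were called with all libraries and 766 to 4612 on leaving out 1, with 2 to 3 members and 2 to 10 partners. That number was 1694 and 1374 genes without clone 1 replicate 1 or 2, and 766 and 1903 without clone 2 replicate 1 or 2. The required change of 1.5-fold left 343 genes, 2 partners and 0 members (edgeR glmTreat; 2 of the 9 at an unadjusted p under 0.05, and 3 with the DESeq2 Wald test and with limma-voom, which require no minimum change). Anxa8 in clone 1 against WT ranged from -3.27 to -2.94 over 15 alternatives. No called value changed sign in these alternatives, while Anxa11 in clone 1 against WT, a description, stood at -0.01 without WT replicate 1. Of 1476 values of single genes over the alternatives, 62 lost and 16 gained a call. The 1476 include values given without a test, which could do neither. Of these untested values, 7 moved by at least the spread between replicates. Same-numbered replicates did not deviate together (correlations -0.156, 0.0819 and 0.00474). With 1 replicate difference per group, this cannot show whether same-numbered libraries were prepared together, and the labels do not say. With a replicate block, 7130 genes, 5 members and 21 partners were called in clone 2 against WT, and 2942 genes, 3 members and 6 partners between the clones. Depth limits Anxa9 most, with 61 to 143 reads a library.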
